A study of Mus musculus with 8 samples.

Results

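Libraries numbered 3 and 4 were compared with libraries numbered 1 and 2 within each of 2 groups of mouse embryonic fibroblasts, and the report describes what varied between these 2 sets of libraries in both groups alike. The 4 libraries numbered 3 or 4 and the 4 numbered 1 or 2 are all 8 libraries of the series. Both groups are immortalized fibroblasts that lack Opa1, which encodes a GTPase of the inner mitochondrial membrane needed for fusion and for the shape of the cristae. One group is labelled Opa1-/- (knockout libraries below), and the other is labelled Opa1-/- + OPA1 (reconstituted libraries), meaning that OPA1 was put back. The series asked what loss of OPA1 does to the transcriptome. The cells were untreated, grown in DMEM with fetal bovine serum and antibiotics, and sequenced in bulk, so that fewer cells of a kind and less RNA per cell cannot be told apart. The labels name neither the clone, the construct nor its promoter. They do not say what the numbers 1 to 4 mark, nor whether the libraries came from separate cultures, so every p-value below measures the spread among these 8 libraries alone, and part of that spread may be technical.

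The libraries numbered 3 and 4 are one number set and those numbered 1 and 2 the other. This split was chosen by measured values, since it was first noticed in the levels of Atf4. Every difference between the number sets is therefore given as a description with no p-value. Some of the genes shown most closely have a standard error (SE) beside the difference. The SE comes from a limma fit that took all 8 libraries as independent. Libraries of the same number were taken to be pairs, so the SE may be too small. It describes spread among these libraries and is not evidence for the split. Atf4 is given without an SE, since its levels gave the split. Tests are given for whether the number sets differed unequally in the 2 groups and for the difference between the groups. Only the fit of the group difference without the number set as a term is free of the split.

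The background is as follows. When amino acids run short, when proteins misfold in the endoplasmic reticulum (ER) or when mitochondria fail, kinases phosphorylate the translation factor eIF2alpha, and this integrated stress response favours translation of the transcription factor ATF4. ATF4 with its partners binds C/EBP-ATF elements at genes for amino acid synthesis and uptake, for charging tRNAs and for feedback regulators. A separate arm of the ER response, through ATF6 and XBP1, acts on ER stress elements at the genes of ER chaperones.

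The authors' values are transcripts per 1000000 (TPM), which were rescaled between libraries by a trimmed mean of log ratios, and levels are given as scaled TPM. Differences are on the log2(scaled TPM + 1) scale, as libraries 3-4 minus 1-2 and as the mean of both groups unless a group is named. The reads recovered from the values came to between 53.01 M and 57.7 M per library (M, 1000000). A gene is called non-overlapping where both libraries numbered 3 and 4 lay above, or both below, the libraries numbered 1 and 2 in each group.

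Opa1 (ENSMUSG00000038084, GRCm38 chromosome 16, 29579334 to 29654884) was at 14.8 and 14.7 in knockout libraries 1 and 2 and at 13.7 and 12.5 in 3 and 4. It was at 15.6 and 14.6 in reconstituted libraries 1 and 2 and at 14.6 and 14.5 in 3 and 4. Its difference between the groups did not pass the test (-0.09, limma adjusted p = 0.203). A gene-level value does not show which exons the reads came from, so it checks neither label, and directions between the groups below rest on the labels. Within the number sets Opa1 sat at the edge of the non-overlap rule, just inside it, since reconstituted libraries 2 and 3 were at 14.58 and 14.56. Nes, which encodes the intermediate filament nestin, sat just outside it, with 56.8 in reconstituted library 2 and 55.9 in library 4.

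Some libraries stood apart. Knockout library 4 had a loading of 0.86 on the first principal component of the within-group deviations, which held 44.9% of that variance. Both libraries numbered 3 had the lowest share of TPM in the small and ribosomal RNA genes Gm42418, Gm24270, Gm23935 and Mir6236, taken as 4 together. That share was 10.96% in knockout library 3 against 14.9% to 15.5% in the other 3 knockout libraries, and 5.29% in reconstituted library 3 against 13.6% to 14.2%. The second component, with 23.0% of the variance, had loadings of 0.59 and 0.47 in these same libraries. On its other side were knockout library 2 at -0.43 and reconstituted libraries 2 and 1 at -0.38 and -0.25. Fibroblast marker genes summed to between 2950 and 3535 scaled TPM in every library, with 3 of 14 members under 1 TPM, and all 10 endothelial markers were under 1 TPM. Of other cell types, epithelial markers summed to 181 to 326 (6 of 10 under 1 TPM), led by the keratin Krt18, and leukocyte markers summed to 43.0 to 63.7 (7 of 10 under 1 TPM), led by Cd14.

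**Figure D1:**
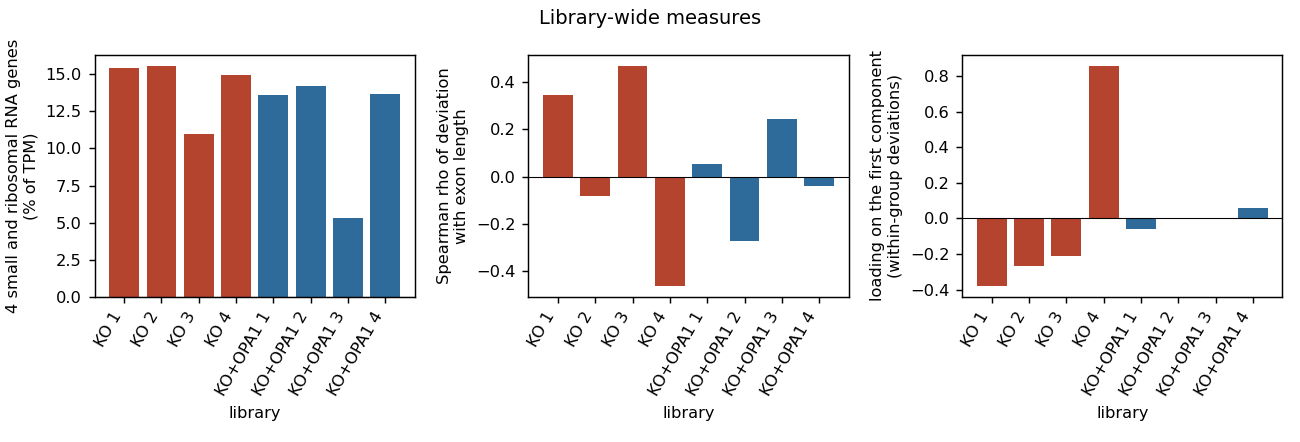
Library-wide measures in the 4 knockout (KO) and 4 reconstituted (KO+OPA1) libraries, as 1 bar per library: the share of TPM (%) in 4 small and ribosomal RNA genes, the Spearman rho across genes of a library's deviation from its group mean with exon length, and the loading on the first component of the within-group deviations. The share is lowest in both libraries numbered 3, and knockout library 4 has the loading of 0.86.

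The trend of the number sets with gene length had opposite signs in the 2 groups. Across 9401 genes, which are not independent replicates, the difference between the number sets had a Spearman rho with exon length of -0.17 in the knockout libraries and 0.15 in the reconstituted ones. Against GC content rho was 0.08 and -0.18. Knockout library 4 on its own ran toward short genes (rho -0.40 against libraries 1 and 2) and knockout library 3 toward long ones (0.28). Reconstituted libraries 3 and 4 were at 0.21 and 0.05 against their libraries 1 and 2. Of the libraries numbered 3 and 4, knockout library 4 alone was thus below 0. Across 9416 genes with a mean log2 level above 3, 27.2% of the within-group sum of squares lay along the number sets in the same direction in both groups, 15.9% along the number sets in opposite directions, and 56.9% between libraries of the same number set.

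Of 14272 genes tested, 1032 were higher without overlap in the libraries numbered 3 and 4 (7.23%) and 1101 were lower (7.71%), together 14.9%. The differences were small. Their median size among these genes was 0.15, against 0.07 over all genes tested and 0.16 for the difference between the groups over all genes. Only 28 of the higher and 17 of the lower genes differed by 1.5-fold or more, and 7 and 2 by 2-fold or more. The direction of the whole depended on scaling, since on TPM as deposited 1634 genes were higher and 219 lower, with the median of all genes shifted by 0.05. A limma fit with group as a block called 25 genes higher and 16 lower (0.287% of those tested), which is given as a count only. With the replicate number as a block it called 0 and 0. It also called 0 and 0 without knockout library 1 or 2 or without reconstituted library 1, 3 or 4, each left out singly. It called 1 and 0 without reconstituted library 2, 14 and 5 without knockout library 3, and 125 and 110 without knockout library 4.

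**Figure D2:**
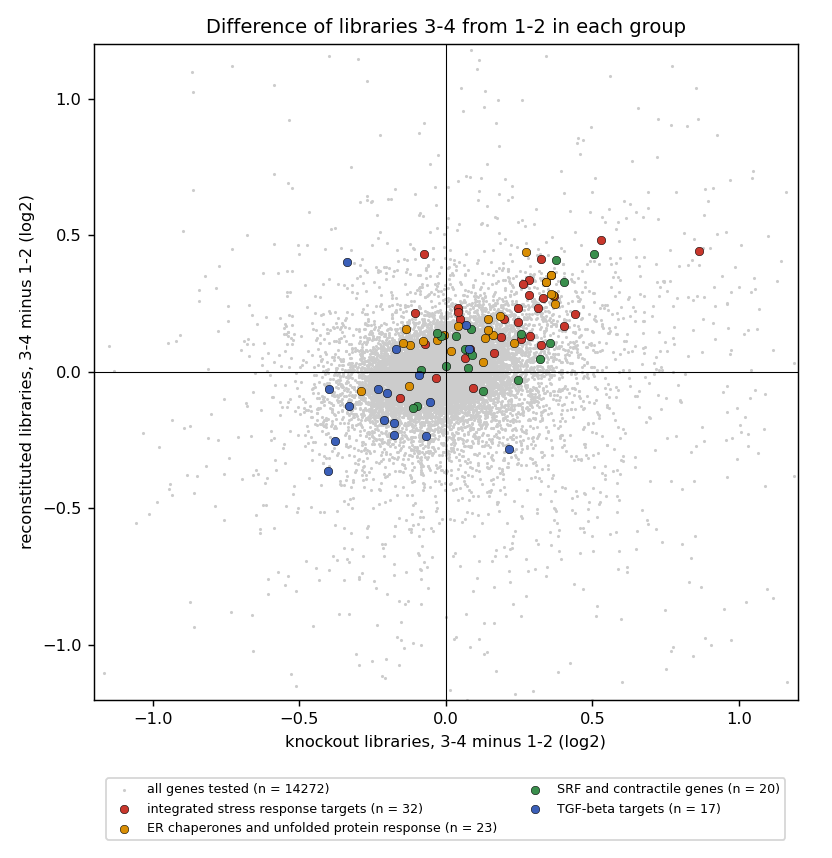
Difference of libraries 3-4 from 1-2 (log2) in the knockout libraries (x axis) and the reconstituted libraries (y axis), 1 point per gene. Grey points are the 14272 genes tested (100 of them lie outside the axes), and coloured points are members of 4 gene lists. Most integrated stress response genes lie in the upper right quadrant and most TGF-beta targets in the lower left.

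The genes of the integrated stress response were among the higher ones. Atf4 (ENSMUSG00000042406, chromosome 15, 80255184 to 80257541) was at 578 and 602 in knockout libraries 1 and 2 and at 696 and 741 in 3 and 4. In the reconstituted libraries it was at 484 and 502 and then 594 and 603. The number sets did not overlap in either group, and the difference was 0.28 in the knockout and 0.28 in the reconstituted libraries (mean 0.28, 1.22-fold). Trib3 encodes a pseudokinase that ATF4 induces and that feeds back on it (chromosome 2, 152337422 to 152344032). It stood at 33.7 and 37.0 in knockout libraries 1 and 2, 48.8 and 54.2 in knockout 3 and 4, 7.92 and 8.27 in reconstituted 1 and 2, and 11.05 and 12.4 in reconstituted 3 and 4. The step between the number sets was alike in the 2 groups (0.53 and 0.48) although the groups themselves lay far apart. Asns, which makes asparagine (chromosome 6, 7675169 to 7693254), went from 244 and 239 to 309 and 304 in the knockout libraries and from 124 and 128 to 158 and 158 in the reconstituted libraries, a difference of 0.34 ± 0.028.

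Promoters of 3 genes of amino acid stress and of 2 ER genes are shown because they carry the elements named above and because their genes were higher in both groups. They are the RefSeq windows of 250 bases before to 50 after the annotated start on GRCm38.p6, written 5′ to 3′ on the strand of the gene. Capitals mark the match to TGATGNAA, a C/EBP-ATF core, on either strand in the first 3, and to the ER stress element (CCAAT, then 9 bases of any kind, then CCACG) on either strand in the last 2.
Trib3 chr2:152344011-152344310 (minus strand): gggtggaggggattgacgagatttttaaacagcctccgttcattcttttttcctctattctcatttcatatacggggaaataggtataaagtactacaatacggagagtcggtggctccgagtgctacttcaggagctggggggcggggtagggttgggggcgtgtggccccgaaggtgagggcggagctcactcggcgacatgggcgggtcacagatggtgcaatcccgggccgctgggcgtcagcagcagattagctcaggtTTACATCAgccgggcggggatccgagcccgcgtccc
Asns chr6:7693160-7693459 (minus strand): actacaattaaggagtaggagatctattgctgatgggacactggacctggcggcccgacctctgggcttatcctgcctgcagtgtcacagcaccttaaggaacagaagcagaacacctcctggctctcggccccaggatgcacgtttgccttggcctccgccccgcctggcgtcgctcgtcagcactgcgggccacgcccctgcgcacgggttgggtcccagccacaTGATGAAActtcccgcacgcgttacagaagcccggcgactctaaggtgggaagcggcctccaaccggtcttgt
Aars chr8:111033592-111033891 (plus strand): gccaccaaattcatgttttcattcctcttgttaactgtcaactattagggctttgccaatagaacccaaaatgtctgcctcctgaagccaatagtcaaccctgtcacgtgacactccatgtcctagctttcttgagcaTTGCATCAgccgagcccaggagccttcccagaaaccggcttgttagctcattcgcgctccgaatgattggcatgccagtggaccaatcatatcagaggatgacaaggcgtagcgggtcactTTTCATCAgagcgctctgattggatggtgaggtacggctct
Hspa5 chr2:34771840-34772139 (plus strand): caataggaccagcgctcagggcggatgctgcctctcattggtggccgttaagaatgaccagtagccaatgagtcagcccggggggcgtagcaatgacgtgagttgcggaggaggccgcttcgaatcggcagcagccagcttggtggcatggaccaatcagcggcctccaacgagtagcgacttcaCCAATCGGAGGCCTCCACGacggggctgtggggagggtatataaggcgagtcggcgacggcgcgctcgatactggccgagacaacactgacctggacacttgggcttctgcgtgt
Creld2 chr15:88819396-88819695 (plus strand): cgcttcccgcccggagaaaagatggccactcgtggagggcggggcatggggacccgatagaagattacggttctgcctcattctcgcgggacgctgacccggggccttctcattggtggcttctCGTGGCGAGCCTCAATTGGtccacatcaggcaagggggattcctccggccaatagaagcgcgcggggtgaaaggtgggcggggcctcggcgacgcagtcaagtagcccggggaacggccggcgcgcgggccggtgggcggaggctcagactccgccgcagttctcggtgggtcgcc

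TGATGNAA was found in 3.97% of all 32851 promoter windows and in 2.48% of the 9510 tested genes that had one. It was in 11 of 27 windows of integrated stress response genes and 5 of 13 of tRNA synthetase genes. Among the 11 was Vldlr, which was below 0 in both groups. TGATGNAA was in 4.79% of the 772 higher genes with a window and 1.56% of the 832 lower ones. The ER stress element, which was searched for after the values had been seen and which contains the shorter motif CCAAT, was in 0.119% of all windows and in 8 of 20 windows of ER chaperone and unfolded protein response genes. Of those 8 genes, Hspa5, Hsp90b1, Calr, Pdia6, Creld2 and Syvn1 were higher without overlap, and Canx and Dnajc3 were not. GAANNTTC, part of the heat shock element, was in 11 of 19 windows of heat shock genes and in 7.86% of all windows. It was in 6.61% of the higher and 6.25% of the lower genes with a window, close to the 6.79% of tested genes. Such matches describe the letters of these windows and are not measured binding.

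Of 32 integrated stress response genes tested, which include Atf4 itself, 18 were higher without overlap and 0 lower, with a median difference of 0.21 against -0.0045 over all genes. The median was 0.25 in the knockout and 0.21 in the reconstituted libraries. The 18 also include Ddit3 (CHOP, a pro-apoptotic factor), Atf5, Chac1 (which degrades glutathione), Nupr1, Jdp2, Gdf15, Eif4ebp1 and Pck2. Atf3, a stress-induced repressor, was 1.29-fold higher (0.37 ± 0.089) at low levels of 1.94 to 4.76 scaled TPM. Herpud1, which takes part in ER-associated degradation, went from 31.7 and 31.2 to 42.1 and 39.2 in the knockout and from 24.2 and 23.1 to 29.9 and 31.1 in the reconstituted libraries. Of the other 14, Vldlr, a lipoprotein receptor, and Ppp1r15a, the feedback phosphatase subunit GADD34, were below 0 in both groups but overlapped. Without both libraries numbered 3 the count was 21 and 1, and without knockout library 4 it was 24 and 0. With fewer libraries more genes meet the rule by its construction. Over all 14272 genes tested the counts in these 2 settings were 2412 and 2498, and 2145 and 1841.

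**Figure D3:**
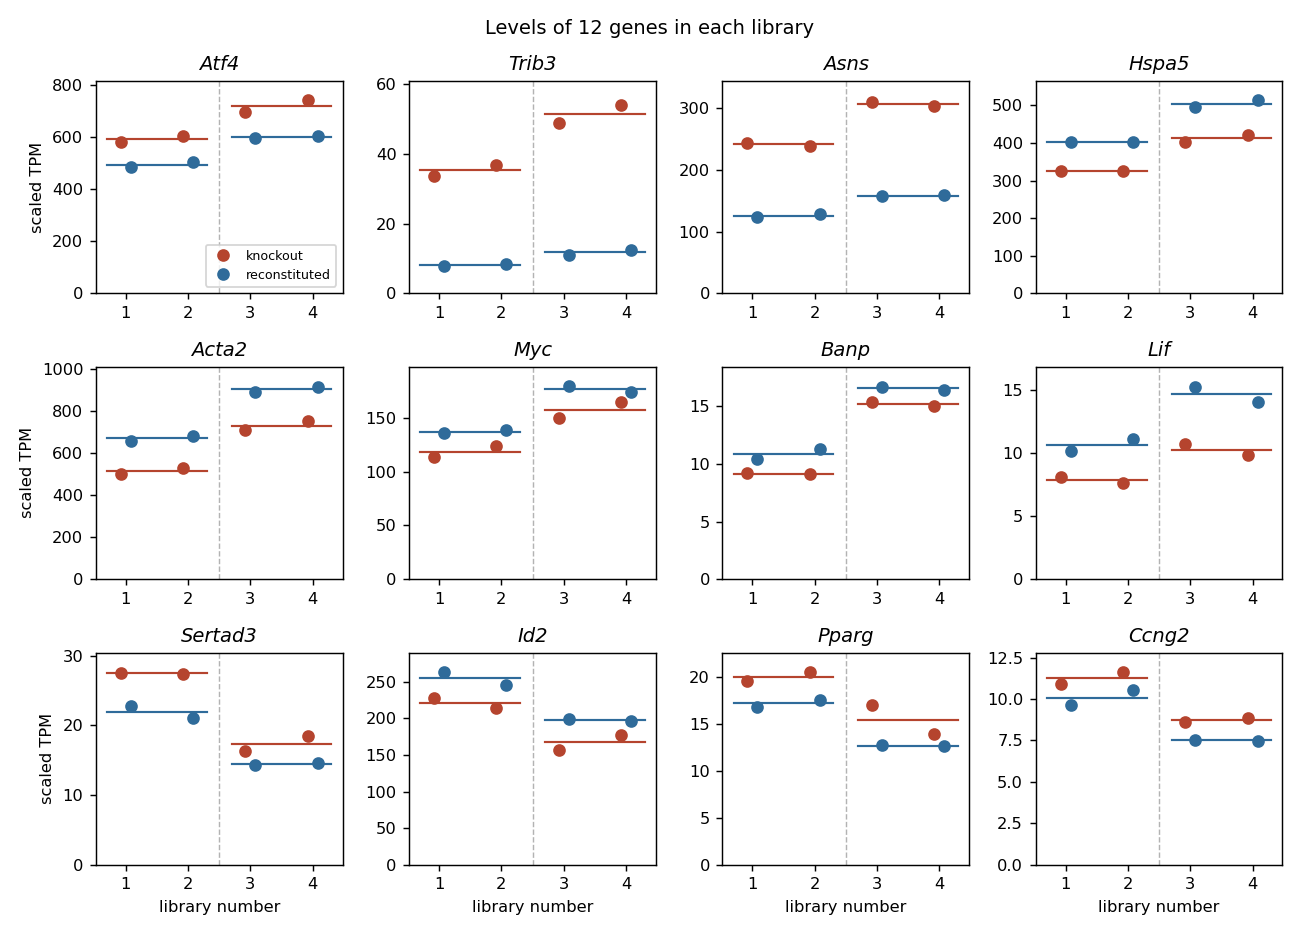
Scaled TPM of 12 genes (y axes start at 0) by library number, with knockout libraries in red and reconstituted libraries in blue, 1 point per library and a line at the mean of each number set. In all 12 genes both points right of the dashed line lie above, or both below, the points of the same colour left of it.

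The enzymes that charge tRNAs with amino acids were higher together. Of 20 cytosolic aminoacyl-tRNA synthetases, 14 were higher without overlap and 1 lower, with a median difference of 0.15 (0.15 in the knockout and 0.14 in the reconstituted libraries). Eprs, which charges glutamate and proline tRNAs, was at 43.6 and 41.1 and then 51.3 and 47.8 in the knockout libraries and at 39.2 and 38.2 and then 45.4 and 45.2 in the reconstituted libraries. Cars, Sars and Aars differed by 0.21, 0.20 and 0.20. The exception was Qars, the glutamine enzyme, at -0.05, and on TPM as deposited it was at 0.01.

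Amino acid synthesis and uptake showed the same direction in part. Of 22 genes that make serine, one-carbon units and other non-essential amino acids, 9 were higher and 1 lower, with a median of 0.12. Several of them are also on the stress response list. Gpt2, the mitochondrial alanine aminotransferase, went from 42.7 and 41.2 to 57.2 and 51.9 in the knockout and from 21.8 and 21.9 to 28.6 and 27.4 in the reconstituted libraries. Pycr1, an enzyme of proline synthesis, differed by 0.32. Of 14 amino acid transporters 5 were higher and 0 lower (median 0.11). Without both libraries numbered 3 those counts were 5 and 2 (0.03), and without both numbered 4 they were 12 and 0 (0.18). Over all 14272 genes tested the counts were 2412 and 2498 and then 2945 and 2634. Slc7a3, a cationic amino acid transporter, went from 31.5 and 31.1 to 41.7 and 40.1 in the knockout and from 9.70 and 9.80 to 12.04 and 12.8 in the reconstituted libraries, and Slc1a4, a neutral amino acid transporter, differed by 0.32.

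ER chaperones were higher as well. Of 23 genes of ER chaperones and the unfolded protein response, 13 were higher and 0 lower, with a median of 0.13 in all and 0.13 and 0.14 in the 2 groups. Hspa5 encodes BiP, the main ER chaperone (chromosome 2, 34771970 to 34777547). It was at 326 and 324 in knockout libraries 1 and 2, 403 and 422 in 3 and 4, 402 and 402 in reconstituted libraries 1 and 2 and 496 and 513 in 3 and 4. Its number sets lay well apart in each group, and the differences were 0.34 and 0.33. Calr, a calcium-binding chaperone, differed by 0.32 ± 0.05, and Sdf2l1 by 0.36. The ER-resident Pdia4, Hsp90b1, Manf and Creld2, the ubiquitin ligase Syvn1 and the transcription factor Xbp1 were also among the 13.

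Cytosolic heat shock proteins were higher in part, with 8 of 24 higher and 1 lower (median 0.09). Hsph1, a nucleotide exchange factor for HSP70, went from 62.9 and 61.7 to 84.2 and 74.5 in the knockout and from 75.0 and 76.7 to 104 and 108 in the reconstituted libraries. Hsf1, the transcription factor of the heat shock response, differed by 0.21. The lower member was Dnajb4, at -0.11.

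Cytokine and growth genes followed. Of 20 NF-kB targets and chemokines 10 were higher and 0 lower (median 0.11). Lif, a cytokine of the interleukin-6 family, went from 8.06 and 7.60 to 10.7 and 9.78 in the knockout and from 10.2 and 11.1 to 15.2 and 14.0 in the reconstituted libraries. The chemokines Cxcl1, Ccl7 and Cxcl5 differed by 0.44, 0.37 and 0.30. Of 12 interferon-stimulated genes tested (18 more of the list fell under the filter), 4 were higher and 0 lower (median 0.11), Irf9 and Gbp2 among them.

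Myc, the growth transcription factor (chromosome 15, 61985391 to 61990374), was at 114 and 124 in knockout libraries 1 and 2, 149.9 and 165 in 3 and 4, 136 and 139 in reconstituted libraries 1 and 2 and 179.9 and 174 in 3 and 4. The difference of 0.38 ± 0.043 was similar in both groups. The 32 genes of ribosome biogenesis and MYC targets, Myc among them, had 10 higher and 1 lower, at a median of only 0.04. Ppan and Nop56, nucleolar proteins, differed by 0.18 and 0.16, and Ldha, lactate dehydrogenase, was the lower one at -0.07. Of 23 p53 targets 5 were higher and 0 lower (median 0.02), including the death receptor Fas at 0.47 ± 0.086 and the kinase Plk2 at 0.38.

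Immediate early genes, which are transcribed within minutes of a stimulus, split both ways. Of 26 tested, 7 were higher and 8 lower. Jun, Klf6, Cyr61 and Atf3 stood with Myc among the higher. Egr3, a zinc finger factor, went from 11.4 and 11.6 to 7.79 and 5.22 in the knockout and from 14.3 and 13.3 to 10.5 and 10.3 in the reconstituted libraries. Junb, Nr4a1, Ier3 and Fosb were also lower. Of 19 genes of feedback on ERK signalling, 1 was higher (Spry1) and 3 lower (Etv4, Ier3 and Dusp7).

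Contractile genes, many of them targets of serum response factor (SRF), had 6 of 20 higher and 1 lower, at a median of 0.08. Without both libraries numbered 3 the contractile counts were 6 and 1 (median 0.03), and without both numbered 4 they were 14 and 2 (0.13). Acta2, smooth muscle actin (chromosome 19, 34241090 to 34255590), was at 497 and 527 in knockout libraries 1 and 2 and at 707 and 749 in 3 and 4. In the reconstituted libraries it was at 657 and 681 and then 891 and 913, a difference of 0.47 ± 0.039 over both groups. Tagln and Cnn1, which bind actin filaments, differed by 0.39 and 0.36. An unstranded count could not part Tagln from Gm48529, which covers 62.4% of its exons on the other strand at a mean of 2.88 TPM. The lower member was the fibronectin receptor subunit Itga5, at -0.12. Of 22 YAP-TEAD targets 5 were higher (Ankrd1 by 0.38 and Cyr61 by 0.29 among them) and 1 lower, Foxf2, with a median of -0.02 (0.03 on TPM as deposited). Of 28 collagen and matrix genes 8 were higher and 0 lower, at a median of 0.03, led by Fbln5, which organizes elastic fibres, at 0.28. Without both libraries numbered 3 the matrix counts were 9 and 3 (median -0.02), and without both numbered 4 they were 14 and 1 (0.11). The YAP-TEAD counts were 7 and 4 (-0.08) and then 8 and 2 (0.02). Over all 14272 genes tested the counts were 2412 and 2498 and then 2945 and 2634.

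Genes on the list called TGF-beta targets went the other way. Of 17 tested, 0 were higher and 8 lower, with a median of -0.15 (-0.18 in the knockout and -0.11 in the reconstituted libraries), and on TPM as deposited 4 were lower and the median was -0.09. Id2, an inhibitor of basic helix-loop-helix factors (chromosome 12, 25093799 to 25097140), was at 228 and 214 in knockout libraries 1 and 2, 157 and 177 in 3 and 4, 263 and 246 in reconstituted libraries 1 and 2 and 199 and 197 in 3 and 4. Smad6, which blocks signalling by bone morphogenetic protein receptors, differed by -0.32 ± 0.065. Id3, the co-repressor Skil, the ligand Tgfb1 and the latency protein Ltbp3 were also lower. The list thus holds a ligand, a latency protein and an inhibitor of bone morphogenetic protein signalling. Its direction is not a measure of TGF-beta signalling, which was not tested.

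Other lists leaned lower only in part, and not on TPM as deposited, where 1634 of all genes tested were higher and 219 lower. With libraries scaled by their upper quartile instead, the medians stayed below 0. They were -0.03 for NRF2 targets, -0.03 for autophagy genes and -0.02 for polyamine genes. Of 29 NRF2 targets 2 were higher and 8 lower (median -0.04), but 2 were higher and 0 lower on TPM as deposited, with a median of 0.02. Txnrd1 and Srxn1, of thiol redox control, differed by -0.16 and -0.16, while Hmox1, heme oxygenase, was higher by 0.18. Of 30 autophagy genes 1 was higher and 6 lower (median -0.03), but 4 were higher and 0 lower on TPM as deposited, at 0.02. Of 17 polyamine genes 0 were higher and 6 lower (median -0.03), against 0 and 1 on TPM as deposited, at 0.03. Among them Oaz1, the antizyme that brakes ornithine decarboxylase, differed by -0.19.

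Cell cycle and metabolic lists lay on either side of the shares over all genes, 7.23% higher and 7.71% lower. Of 31 genes of the G1/S transition and DNA replication 2 were higher and 4 lower (6.45% and 12.9%). Of 30 of mitosis 0 were higher and 1 lower, and both lists were close to a median of 0 (0.00 and -0.02). Of 75 nuclear-encoded oxidative phosphorylation genes 0 were higher and 3 lower, and of 79 cytosolic ribosomal protein genes 2 were higher and 1 lower. None of the 13 mRNAs encoded by mitochondrial DNA was non-overlapping. By list median, in these 3 lists knockout library 3 lay below and knockout library 4 above both knockout libraries 1 and 2. In the reconstituted libraries, 3 and 4 lay between 1 and 2 for oxidative phosphorylation and ribosomal protein genes. For the mitochondrial mRNAs both lay below 1 and 2 there. With fewer libraries more genes meet the rule by its construction. Over all 14272 genes tested, 2412 were higher and 2498 lower without both libraries numbered 3, and 2945 and 2634 without both numbered 4. Oxidative phosphorylation genes had 12 higher and 4 lower without both libraries numbered 3 (median 0.08), and 1 and 29 without both numbered 4 (-0.07). Ribosomal protein genes had 20 and 1 (0.09) and then 3 and 24 (-0.06), and the mitochondrial mRNAs 1 and 1 (0.12) and then 0 and 7 (-0.20). On TPM as deposited 10 of the oxidative phosphorylation and 18 of the ribosomal protein genes were higher and 0 of either lower. Over all 14272 genes that setting had 1634 higher and 219 lower. Of 31 lysosome genes 2 were higher and 3 lower, close to the shares over all genes, against 3 and 1 on TPM as deposited (median 0.04). Without both libraries numbered 3, 4 of them were higher and 11 lower. Of 21 glycolysis genes 1 was higher and 2 lower, and of 23 hypoxia-inducible factor targets 3 and 2. Clock genes had 2 of 16 higher and 3 lower, FOXO and growth arrest genes 3 of 20 and 3, glucose-responsive MondoA targets 0 of 8 and 1, and fatty acid synthesis 1 of 16 and 0. Pdk4, a pyruvate dehydrogenase kinase on the FOXO list, differed by 0.29, and Ccng2, a cyclin of growth arrest, by -0.36. Cholesterol synthesis genes had 3 of 25 higher, 0 lower and medians of 0.16 in the knockout and -0.03 in the reconstituted libraries. Without knockout library 3 those counts were 3 and 4, and 1561 and 1673 over all genes tested. Fatty acid synthesis had 1 higher and 6 lower without both libraries numbered 3.

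**Figure D4:**
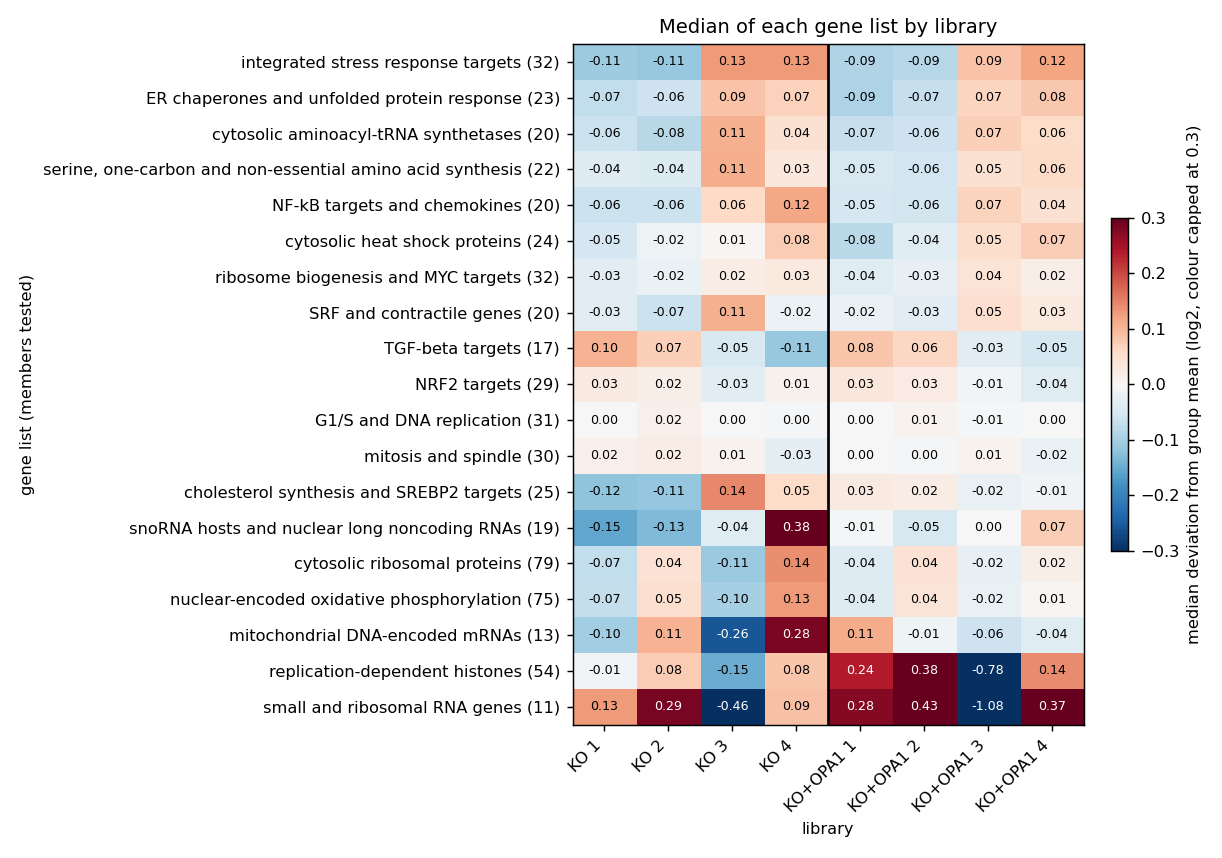
Median deviation (log2) from the group mean of the tested members of 19 gene lists (rows, number tested in parentheses) in each knockout (KO) and reconstituted (KO+OPA1) library. The stress response row is below 0 in all 4 libraries numbered 1 and 2 and above 0 in all 4 numbered 3 and 4. The histone and small RNA rows have their lowest value in both libraries numbered 3. On TPM as deposited the difference between the number sets for NRF2 targets is 0.02 and not below 0.

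Some differences rested on single libraries. For 54 replication-dependent histone genes, whose mRNAs lack a poly(A) tail, the median difference was -0.33 with 1 higher and 7 lower, and without both libraries numbered 3 it was -0.02. For 11 small and ribosomal RNA genes it was -0.61, and without both libraries numbered 3 it was -0.16. Both groups had their lowest median in library 3. The low share of small and ribosomal RNA in these libraries moves with both lists, and its part in the result was not tested. For 19 hosts of small nucleolar RNAs and nuclear noncoding RNAs, 8 were higher and 0 lower, with medians of 0.29 in the knockout and 0.06 in the reconstituted libraries. Without knockout library 4 the median was 0.09. H19, an imprinted noncoding RNA on that list, went from 51.9 and 54.6 to 105 and 102 in the knockout and from 12.6 and 11.8 to 14.6 and 17.1 in the reconstituted libraries.

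Outside the lists, Banp, a nuclear matrix protein gene (chromosome 8, 121949750 to 122029258), was at 9.19 and 9.14 in knockout libraries 1 and 2, 15.3 and 15.1 in 3 and 4, 10.4 and 11.3 in reconstituted libraries 1 and 2 and 16.7 and 16.4 in 3 and 4. The difference was 0.67 in the knockout and 0.57 in the reconstituted libraries. Cbr2, a carbonyl reductase, went from 8.51 and 9.06 to 14.3 and 16.2 in the knockout and from 10.5 and 12.02 to 13.2 and 15.3 in the reconstituted libraries. Adm2, a peptide hormone, differed by 0.48, and Gadd45g, a stress sensor, by 0.40. The small RNAs Rnu73b and Mir3074-1 (0.81 and 0.78) and the mitochondrial tRNA mt-Ti (0.55) completed the highest genes. The small RNA differences lay mostly in the knockout libraries, with 1.36 there and 0.26 in the reconstituted libraries for Rnu73b, and 1.26 and 0.29 for Mir3074-1. Rnu73b and Mir3074-1 rested on as few as 17.0 and 11.99 reads in a library. Mir3074-1 lies wholly within exons of 2010111I01Rik on the other strand.

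At the low end, Sertad3, a transcriptional coregulator (chromosome 7, 27473768 to 27477364), was at 27.5 and 27.4 in knockout libraries 1 and 2, 16.3 and 18.5 in 3 and 4, 22.8 and 21.1 in reconstituted libraries 1 and 2 and 14.3 and 14.6 in 3 and 4. This step of -0.60 ± 0.051 was -0.63 in the knockout and -0.57 in the reconstituted libraries. Pparg, the nuclear receptor of adipocyte differentiation, went from 19.6 and 20.5 to 17.0 and 13.9 and from 16.9 and 17.5 to 12.7 and 12.7. It was the most abundant of 10 adipocyte markers, 8 of which were under 1 TPM. The sum of that list was 36.8 and 38.3, then 31.8 and 29.3, in the knockout libraries and 20.7 and 21.8, then 16.7 and 16.1, in the reconstituted libraries. Phf13 (a chromatin reader), Acsbg1 (an acyl-CoA synthetase) and Lgr6 (a receptor for R-spondins) differed by -0.50, -0.48 and -0.59. The rest of the lowest genes were the histones Hist1h3i, Hist1h4d and Hist1h4f, Mir7688 and mt-Tv.

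Summed markers of cell types moved with the number sets in several lists. Fibroblast markers were at 3066 and 2950 scaled TPM in knockout libraries 1 and 2, 3233 and 3128 in 3 and 4, 3495 and 3472 in reconstituted libraries 1 and 2 and 3517 and 3535 in 3 and 4. Neural and glial markers were at 49.1 and 46.8, then 61.1 and 55.5, in the knockout libraries and at 78.8 and 80.3, then 86.0 and 82.7, in the reconstituted libraries. Both sums were higher without overlap in each group, but few of their members were. Of those tested, 2 of 11 fibroblast markers (median 0.02) and 1 of 4 neural and glial markers were higher without overlap. Nes, the most abundant neural marker, overlapped, and 6 of the 10 neural and glial markers were under 1 TPM. Adipocyte markers were lower without overlap in each group, as given above. Epithelial markers went from 259.6 and 259.3 to 293 and 326 in the knockout libraries and from 235 and 248 to 192 and 181 in the reconstituted libraries, in opposite directions. Leukocyte and skeletal muscle markers were lower without overlap in 1 group and cartilage and bone markers higher in 1 group, while the other group overlapped. Among single members, Acta1, skeletal muscle actin, was lower at -0.58 and Cd14 at -0.23. Cd68, a macrophage lysosomal protein named after its values were seen, was at 2.168 and 2.76, then 4.97 and 7.06, in the knockout libraries and at 3.49 and 3.69, then 5.03 and 5.65, in the reconstituted libraries. Their part in the other results was not tested.

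Whether the number sets differed unequally in the 2 groups was tested by limma as an interaction. It called 0 of 14272 genes (0%), the smallest adjusted p was 0.561, and 810 genes (5.68%) had an unadjusted p below 0.05. Without knockout library 3 the same test called 484 genes with the larger difference in the knockout libraries and 1193 with the smaller, where library 4 stood alone for its number set and its spread was taken from the other libraries. Genes with large interactions, chosen after their values were seen, were Tm4sf1, Clu, Krt19, Efemp1 and Mvd. Tm4sf1, a tetraspanin-like membrane protein, was at 4.09 and 4.56 in knockout libraries 1 and 2, 0.809 and 0.616 in 3 and 4, 2.83 and 2.91 in reconstituted libraries 1 and 2 and 2.64 and 3.26 in 3 and 4. Only its knockout number sets parted. Krt19, a keratin, went from 82.4 and 81.8 to 104 and 113 in the knockout libraries and from 38.4 and 39.5 to 35.0 and 36.4 in the reconstituted ones. Clu, the secreted chaperone clusterin, differed by -0.09 in the knockout and by -0.53 in the reconstituted libraries.

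The difference between the groups was then fitted with the number set as a term. Each number set holds 2 libraries of each group, so the term leaves the size of that difference as it was and changes only its error. Because the term was chosen with these values in view, the smaller errors are not independent evidence. With the term, limma called 2503 genes higher and 2556 lower in the knockout libraries (17.5% and 17.9%, together 35.4%). Without it, 2305 and 2408 were called (33%). The 2 fits shared 2261 higher and 2361 lower genes, 437 were called with the term only and 91 without it only.

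Atf4 was 0.26 higher in the knockout libraries, which did not pass without the term (limma adjusted p = 0.0746). With the term it would be a test on the values that gave the split, so that p is not given. Trib3 and Asns rose in the knockout libraries by 2.02 and 0.94, and passed in both fits (adjusted p = 7.86e-05 and 0.000414 without the term). In all, 30 of the 32 stress response genes were called higher in the knockout libraries with the term and 28 without, and 1 lower in either. The synthetases had 11 of 20 higher and 2 lower with the term, and 10 and 2 without. Levels of these genes were highest in the knockout libraries numbered 3 and 4 for Atf4, Trib3 and Asns alike.

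The ER chaperone gene Hspa5 and the contractile gene Acta2 had lower levels in the knockout libraries and higher levels in libraries 3 and 4. Hspa5, Acta2, Myc, Id2 and Sertad3 did not pass the group test without the term. They were named for their differences between the number sets, so the term was bound to lower their error. Their p with the term is therefore not given, and the list counts with the term share this limit. Hspa5 was at -0.30 (limma adjusted p = 0.0765 without the term). Of the 23 ER genes 10 were called lower in the knockout libraries with the term (7 without) and 1 higher. Acta2 was at -0.35 (limma adjusted p = 0.129 without the term), and 16 of the 20 contractile genes were called lower with the term (14 without). Myc was at -0.19 (limma adjusted p = 0.317 without the term). Id2 was at -0.22 and Sertad3 at 0.28 (limma adjusted p = 0.242 and 0.334 without the term). With the replicate number as a block, 2335 genes were called higher and 2412 lower.

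**Figure D5:**
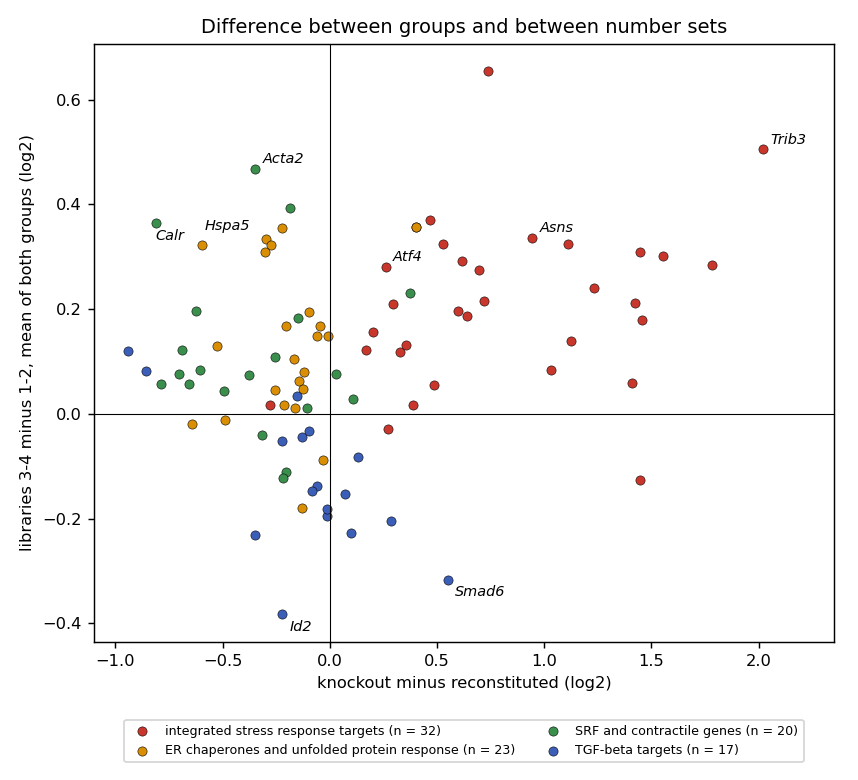
Difference between the groups (x axis, knockout minus reconstituted, log2) and between the number sets (y axis, libraries 3-4 minus 1-2, mean of both groups, log2) for members of 4 gene lists, 1 point per gene. Trib3, Asns and Atf4 lie to the upper right, Hspa5, Calr and Acta2 to the upper left and Id2 to the lower left.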

How the data were processed

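RNA from 4 Opa1-/- and 4 Opa1-/- + OPA1 libraries was sequenced. The authors deposited TPM values for 49315 genes per library, per the file headers. Reads were processed with STAR 2.5.2b, Subread 1.5.2, featureCounts and bcl2fastq 2.17, per the submitters' processing notes, which also name mm10 and GRCh38 without a role. No source used here gives the strandedness of counting, and genes that overlap on opposite strands cannot be parted.

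The 14272 genes that reached 1 TPM in 4 libraries or more were tested. TPM were scaled to the mean log profile, leaving out the outer 30% of log ratios and 5% of levels at either end, and put on a log2(TPM + 1) scale. For tests, limma 3.58.1 in R 4.3.3 was fitted with a mean-variance trend, two-sided, with Benjamini-Hochberg adjustment over all genes and a threshold of 0.05. Each fit used all 8 libraries, with group, number set and, for the interaction, their product as terms. Gene positions, exon lengths and GC content came from GENCODE M21 (GRCm38, 49056 identifiers matched) and promoters from RefSeq (9510 tested genes matched). TPM times exon length was read as whole reads where it lay within 0.05 of a whole number, which held for 94.5% to 94.9% of low values. These reads give depth only, and at 53.01 M to 57.7 M reads (M, 1000000) the spread between libraries sets the error. Tables and figures were made in Python 3.11.15 with matplotlib 3.10.9, pandas 2.3.3, numpy 2.4.6 and scipy 1.17.1.

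The split, the 44 gene lists (8 of them cell type markers) and the rules were chosen with earlier results of these data known. Of 1018 list members in the files, 896 were tested, and members under the filter are not described. Genes named are Atf4 and Opa1, the 12 highest and 12 lowest non-overlapping differences at 10 TPM or more, up to 4 non-overlapping members of each list with the largest differences, list members that went against their list, and the most abundant marker of each cell type. Others are said to be chosen after their values were seen or are listed only as members. Some list members are not reported here by name.

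The numbers 1 to 4 were checked for pairing. Deviations from the group means correlated between same-numbered libraries at 0.25, 0.22, 0.32 and 0.12 across 9416 genes, all over 0.1. Knockout library 3 with reconstituted library 4 reached 0.11 too, so the pair numbered 4 is not set apart from its number set. The numbers were taken to pair the libraries, and a fit with the number as a block is given where it changes a call. The pairing comes from the data, since the labels do not state it.

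The fits were tested on simulated libraries of 14272 genes. Noise was drawn independently for each library, and the changed genes came from those with a mean log2 level above 3. Deviations shared between libraries were not simulated, so these rates need not hold for the real libraries. For the number sets, 86% of genes changed by 0.5 and 97% of those changed by 1 (log2) were recovered. For the interaction 90% at 1 and 94% at 2 were recovered, and for the group difference 79% at 0.5 and 99% at 1. False calls were 10 of 193, 16 of 200 and 12 of 190 in these 3 simulations, more than the 5% set by the threshold.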

Additional observations from a re-analysis of the deposited data

Results flagged for a closer look

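Within each group of 4 libraries, the highest or lowest value was compared with the others by Dixon's ratio for 316 sets of 4 values, and chance flags about 1 in 20 such sets. The 13 sets below had 1 library far from its group. In knockout library 4, Vim, an intermediate filament gene, was at 1567 against 1348 to 1372 in the other 3 knockout libraries, Tyms (thymidylate synthase) at 52.3 against 43.2 to 44.7, and the histone Hist3h2a at 3.37 against 2.57 to 2.68. The same library was low for the helicase subunit Mcm6 (172 against 204 to 210.4), the kinesin Kif11 (100.6 against 119.5 to 123), the thioredoxin reductase Txnrd1 (214 against 282 to 289.5) and the ATP synthase subunit Atp5a1 (922 against 1001 to 1002). In knockout library 3 the glucose transporter Slc2a1 was at 58.0 against 51.8 to 52.6 and the transferrin receptor Tfrc at 86.4 against 76.5 to 76.9. Opa1 was at 15.6 in reconstituted library 1 against 14.5 to 14.6. The small RNA gene Gm24270 was at 4204 in reconstituted library 3 against 12235 to 13539. The share of TPM in small and ribosomal RNA was 10.96% in knockout library 3 and 5.29% in reconstituted library 3.

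For 3 genes the number sets went opposite ways in the 2 groups in every library. The knockout difference exceeded the reconstituted one by 0.62 for the keratin Krt18, by 0.52 for the keratin Krt19 and by 0.40 for the matrix protein Efemp1. The limma interaction adjusted over all genes did not pass for any of them (adjusted p = 0.561 for each).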

How the results depend on the processing

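For the 146 named non-overlapping genes and the 7 other named genes, 2728 values were computed under 18 alternatives. Of these 2616 moved by less than the spread between libraries, 108 moved by more and 4 turned sign. The 4 were on TPM as deposited, Qars at 0.013, Pgam1 at 0.0059, Cox5a at 0.0026 and Atp5a1 at 0.015.

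Counts of non-overlapping genes were 1634 higher and 219 lower on TPM as deposited. With fewer libraries more genes meet the rule by its construction, with 2412 and 2498 without both libraries numbered 3, 2945 and 2634 without both numbered 4, and 1389 to 2145 and 1425 to 1841 without each library in turn.

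The limma calls for the number sets, 25 higher and 16 lower, were 13 and 4 with no filter on low values, 46 and 28 with a filter of 5 TPM, 69 and 51 for protein-coding genes only, 74 and 42 with length and GC trends removed, 0 and 0 without both libraries numbered 3, and 6 and 3 without both numbered 4. On TPM as deposited 2 were lower. Without each library in turn they were 0 to 125 and 0 to 110, at 0 and 0 for 5 of the 8 libraries and highest without knockout library 4. The interaction calls were 14 and 2 with no filter, 1 smaller for protein-coding genes only, and 0 to 484 larger and 0 to 1193 smaller without each library in turn, all from leaving out knockout library 3. The group difference had 1652 lower calls on TPM as deposited, and 1835 to 2963 higher and 1870 to 3078 lower without each library in turn. The causes were not tested.

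With the replicate number as a block, which the pairing check allows, the calls were 0 and 0 for the number sets, 0 and 0 for the interaction, and 2335 and 2412 for the group difference.

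With 2 libraries per number set and group, a difference between number sets cannot be told apart from 2 libraries that deviate together. TPM sums to a fixed total, so a library's small RNA share moves all other genes.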
